A study of Rattus norvegicus with 20 samples.

Results

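Giot1 is a rat zinc finger gene whose transcript rose in the supraoptic nucleus (SON) when rats were deprived of water, at both ages studied. It is 1 of the 32402 genes in the deposited tables, was found there by its symbol (Ensembl identifier ENSRNOG00000051563), and was chosen by its measured rise in dehydration in these same libraries. Its rise in dehydration at each age is therefore given as a description with no test. Tests between the ages that use the dehydrated rats are given with this limit. The data were bulk RNA-seq counts of SON punches from 20 male Wistar Han rats with no genetic modification, each library being 1 rat. Adult rats were 3 months old and aged rats 18 months old, and at each age 5 rats drank freely (euhydrated, EH) and 5 were dehydrated (DH). The sample labels give DH as 2 days, whereas the study's methods state a longer time without water. Reads counted on genes ranged from 24268398 to 30348118 per library (median 27691998), and Avp and Oxt, which define the magnocellular neurones of the SON, were the genes of rank 8 and 15 by mean reads.

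The SON holds magnocellular neurones that make vasopressin and oxytocin and release them from the posterior pituitary into the blood. Loss of water raises the osmolality of plasma, which excites these neurones and turns on many of their genes. Giot1 stands for gonadotropin inducible ovarian transcription factor 1. It was first described as a gene switched on by gonadotropins in the rat ovary, where these hormones act largely through cyclic AMP, and it encodes a C2H2 zinc finger protein with a KRAB domain, a type of protein that as a rule represses transcription by recruiting corepressors to DNA.

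The promoter of Giot1 is shown because many genes induced by cyclic AMP or by neuronal activity carry a cyclic AMP response element (CRE), and the text below turns to such genes. The window is the 250 bases before the annotated start of the gene in RefSeq, assembly GRCr8, chr7:10886966-10887215, minus strand, written 5′ to 3′ along the gene. Capitals mark the CRE.

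Giot1 promoter: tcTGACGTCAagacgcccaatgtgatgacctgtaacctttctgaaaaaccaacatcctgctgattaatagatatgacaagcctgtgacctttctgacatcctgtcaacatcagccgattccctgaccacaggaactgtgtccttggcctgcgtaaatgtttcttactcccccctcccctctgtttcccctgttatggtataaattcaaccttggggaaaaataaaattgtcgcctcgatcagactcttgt

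The CRE searched was the palindrome TGACGTCA. It lay 248 to 241 bases before the start, and 1.83% of 33469 promoter windows of 300 bases (250 before and 50 after the start) held a match. On the opposite strand, bases 166 to 159 before the start matched NBRE, the element AAAGGTCA bound by the Nr4a receptors, which was found on either strand in 1.43% of windows. No match was found in the Giot1 window to AP-1 (TGANTCA), present in 7.33% of windows, or to EGR (GCGNGGGCG), present in 4.98%. The CRE and NBRE matches do not overlap, and a match is a description of the letters and not evidence of binding.

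Giot1 was a transcript of moderate to low abundance, with 172 to 957 reads per library and rank 8168 by mean reads. Levels below are normalised read counts, that is, reads divided by a size factor for the library. Giot1 belongs to a large family of similar zinc finger genes, and how reads shared with a close copy were counted is not given in the sources used here. Because whole reads could be recovered from every library, the 4 groups can also be set on 1 scale, and these values describe the order of the groups.

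On that common scale the adult EH rats had 189, 168, 199, 217 and 208 normalised reads of Giot1. The aged EH rats had 311, 279, 331, 328 and 229. The adult DH rats had 842, 633, 706, 850 and 634. These 3 groups did not overlap, with adult EH lowest, aged EH next and adult DH above both. The aged DH rats had 911, 668, 797, 875 and 638, which overlapped the adult DH rats across nearly their whole range. The means were 196 ± 18.8 in adult EH, 296 ± 42.3 in aged EH, 733 ± 107 in adult DH and 778 ± 122 in aged DH (SD, n = 5 each). In bulk tissue, a change in the number of cells that contain a transcript and a change in the amount per cell cannot be told apart.

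**Figure D1:**
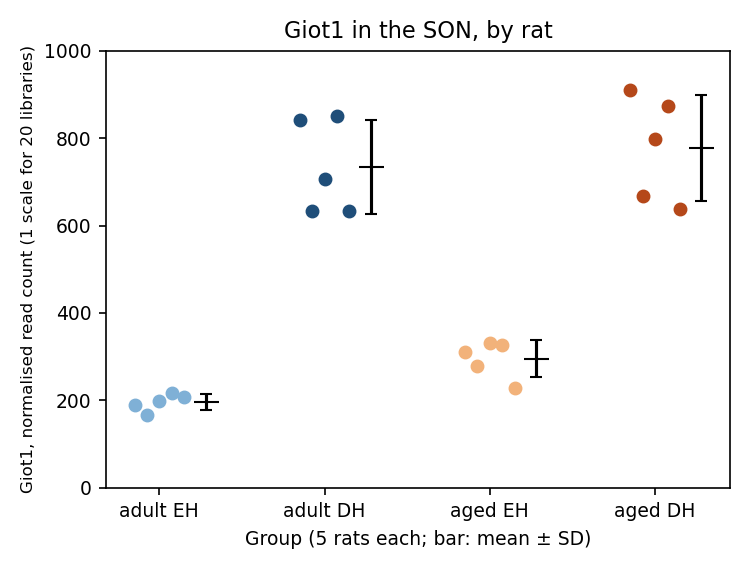
Giot1 in each of 20 rats, as normalised read count on 1 scale (y axis, linear from 0) by group (x axis), with the mean and SD of each group beside the points. The 5 aged EH rats (229 to 331) lay above all 5 adult EH rats (168 to 217), and the 2 DH groups overlapped (633 to 850 in adult DH, 638 to 911 in aged DH).

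The spread between rats was set beside counting error. The coefficient of variation of the normalised count was 9.62% in adult EH, 14.6% in adult DH, 14.3% in aged EH and 15.6% in aged DH, and counting error of the reads came to between 6.90% and 7.62% per library in adult EH, 3.43% and 4.14% in adult DH, 5.38% and 6.27% in aged EH and 3.23% and 3.94% in aged DH. The 2 were closest in adult EH, and no test of the excess was made. No rat stood apart from its group by Dixon's criterion. The lowest aged EH rat and the lowest aged DH rat both carried replicate number 6, at 0.36 and 0.27 below their group means on the log2 scale, and the number marks no shared animal.

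Giot1 was higher in aged than in adult rats with free access to water. In the table of aged EH and adult EH rats, the aged EH rats had 317, 284, 337, 334 and 234 normalised reads, and the adult EH rats 193, 170, 202, 221 and 211. The lowest aged rat was above the highest adult rat. The log2 fold change (LFC) was 0.59 (SE 0.107), which is 1.50-fold (95% interval 1.28 to 1.76), with an adjusted p of 0.00650 by limma over 15369 genes, higher in 5 of 5 aged rats. Of all genes tested, 5.99% passed this threshold, 2.69% as higher and 3.30% as lower in aged EH, and in 6.38% the groups did not overlap. By LFC, Giot1 stood at rank 312 of the tested genes. The EH rats of both ages also entered the rises in DH by which Giot1 was chosen, so this test is not fully independent of that choice.

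Other cell types also moved in the ageing comparison. Of 8 microglial markers, 3 were higher in aged EH and none lower, and the mean log2 level of the list was 9.52 to 9.79 in aged EH and 9.19 to 9.41 in adult EH. Of 8 oligodendrocyte markers, 5 were lower and none higher, with mean log2 levels of 13.5 to 13.7 in aged EH and 13.6 to 14.1 in adult EH. Lower in aged EH were also 2 of 8 astrocyte markers, 2 of 5 endothelial markers and 2 of 4 tested markers of fibroblasts and meninges and 1 of 5 suprachiasmatic markers. With 1 rat left out, the microglial count was 1 to 3, with 1 left without replicate 5 of aged EH or replicate 5 or 6 of adult EH. Of 15 magnocellular genes, 6 were higher and none lower, with a mean log2 level of 12.1 to 12.4 in aged EH and 11.9 to 12.1 in adult EH. That count was 2 without replicate 2 or 5 of aged EH, and 3 without replicate 4 of aged EH or replicate 1, 2, 5 or 6 of adult EH. Over all genes 2.69% were higher and 3.30% lower. Of 70 markers matched to a single gene, 1 (Col1a2) was at 0 reads in every library. The counts come from the ageing table and the mean levels from the DH table of each age, which were scaled separately. The part of these shifts in the Giot1 difference was not tested.

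Dehydration raised Giot1 from a low and narrow range to several times that level in adult rats. In the adult DH table the EH rats had 185, 164, 194, 212 and 203 normalised reads (191 ± 18.4, SD, n = 5) and the DH rats 823, 621, 692, 831 and 622 (718 ± 104, SD, n = 5). Every DH rat was far above every EH rat, as chosen, and 10.9% of all genes tested showed no overlap between these groups. The LFC was 1.90 (SE 0.0979), or 3.72-fold, and ranked 17 among 15280 genes by LFC from the top.

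In aged rats the same direction was seen from a higher starting level. In the aged DH table the EH rats had 316, 284, 337, 333 and 233 normalised reads (301 ± 43.5, SD, n = 5) and the DH rats 929, 678, 810, 891 and 648 (791 ± 125, SD, n = 5). Again no DH rat overlapped an EH rat, against 7.05% of all genes. The LFC was 1.39 (SE 0.117), or 2.62-fold, and ranked 21 among 15346 genes by LFC from the top. These EH rats are also the aged arm of the ageing comparison, so both results rest on the same 5 libraries. In the same way, the adult EH rats serve both the adult DH and the ageing comparison.

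Whether the response to DH differed between the ages was tested over all 20 rats. The aged LFC was lower than the adult LFC by a difference of -0.50 (SE 0.164, 95% interval -0.84 to -0.16), with an unadjusted p of 0.00569 and an adjusted p of 0.293 by limma, so the difference did not pass the threshold over 15159 genes. Since Giot1 was chosen with its responses known, and the study had earlier named it among genes with a weaker DH response in aged rats, neither the sign nor the unadjusted value is independent evidence. By limma no gene passed the adjusted threshold for this difference, and 1515 genes (9.99%) had an unadjusted p under 0.05, of which 5.11% of all genes tested had a lower aged response. On the recovered reads edgeR called 0 of 15332 genes, with 1519 at an unadjusted p under 0.05. DESeq2 gave an adjusted p to 9090 genes and called 55 of them. Among all genes it fitted, 1448 had an unadjusted p under 0.05. Giot1 was not among the 55 (DESeq2 adjusted p = 0.133, LFC difference -0.51).

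The response was also read on the linear scale. On the common scale DH added 537 ± 48.7 normalised reads of Giot1 in adult rats and 482 ± 57.6 in aged rats (difference of means ± SE, n = 5 per group). The aged increment was below the adult one by a difference of -55.3 reads (SE 75.4), less than its error. The dehydrated rats of both ages were also compared directly, a comparison added after the data were seen. That comparison uses the DH values by which Giot1 was chosen, so its result is not independent evidence. Aged DH and adult DH differed in Giot1 by an LFC of 0.08 (SE 0.116, 95% interval -0.16 to 0.32), with a limma adjusted p of 0.695, whereas 12.4% of 15332 genes passed in that comparison. The interval spans 0.896-fold to 1.25-fold.

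Giot1 was set beside 5 genes that the study names together with it, from its earlier work, as answering DH less in aged rats. These are Fos, an immediate early transcription factor, Creb3l1, a membrane-bound transcription factor of the CREB family, Caprin2, an RNA-binding protein, Rasd1, a Ras-like G protein, and Slc12a1, the sodium, potassium and chloride cotransporter. The list was thus chosen for its response to DH and for its difference between the ages, so neither direction is independent evidence here. All 5 were called higher in adult DH by limma, where the background was 12.7% of 15280 genes, 7.67% as higher and 4.99% as lower. In aged DH 4 of 5 were called higher, against a background of 7.29%, 4.05% as higher and 3.25% as lower. Fos had an LFC of 0.78 there (SE 0.249), with an adjusted p of 0.0740.

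Their sizes placed Giot1 near the top of this set. Creb3l1 rose with an LFC of 1.91 in adult DH and 1.30 in aged DH, from 561 to 2107 and from 858 to 2069 mean normalised reads. Caprin2 rose with an LFC of 1.82 in adult DH and 0.87 in aged DH, from 2461 to 8619 and from 4800 to 8640. Slc12a1 rose with an LFC of 1.80 in adult DH and 1.23 in aged DH, from 219 to 757 and from 318 to 737. In these 3 genes the DH means of the 2 ages were closer together than the EH means, as for Giot1, although the tables of the 2 ages were scaled separately. For Rasd1 the EH means were 882 and 949 and the DH means 1597 and 1499 in adult and aged rats. For Fos the EH means were 280 and 332 and the DH means 615 and 568. Rasd1 rose with an LFC of 0.85 in adult DH and 0.67 in aged DH, and Fos rose in adult DH with an LFC of 1.13.

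With ageing, 1 of these 5 genes was called, and 2 were without replicate 1 or 6 of aged EH or replicate 6 of adult EH. Caprin2 was higher in aged EH (LFC 0.88, adjusted p = 0.00610). Creb3l1 had an LFC of 0.52 (adjusted p = 0.103), Slc12a1 0.48 (adjusted p = 0.0703), Fos 0.15 and Rasd1 0.04. The difference between the ages in the DH response was below 0 for all 5, from -0.95 in Caprin2 to -0.19 in Rasd1, with a median of -0.57, and none of the 5 passed the threshold (1 did without replicate 6 of aged EH). The sign is what the list was named for.

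**Figure D2:**
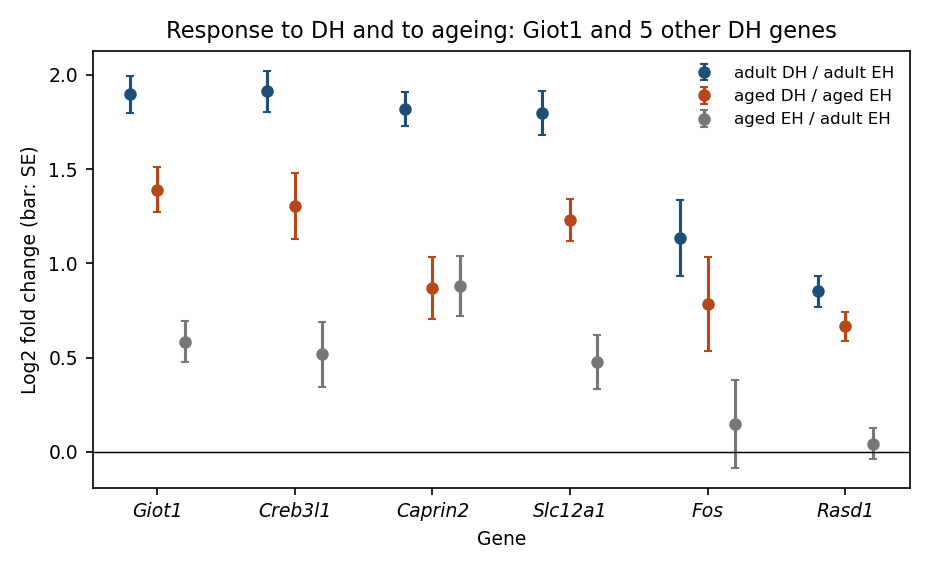
Log2 fold change (y axis, bars are SE from limma) of Giot1 and 5 other DH genes (x axis) for adult DH over adult EH, aged DH over aged EH and aged EH over adult EH, 5 rats per group. Giot1 showed 1.90, 1.39 and 0.59, close to Creb3l1 (1.91, 1.30 and 0.52), while Fos and Rasd1 had smaller responses to DH.

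Immediate early genes, which neurones switch on within minutes of activation, were partly raised in the same samples. Of 23 tested, 8 were higher and 1 lower in adult DH, against 7.67% and 4.99% of all genes, with a median LFC of 0.33 against -0.01. In aged DH 4 rose and 1 fell, against 4.05% and 3.25% of all genes, and the median LFC was 0.09. The AP-1 component Fosl1 was the most responsive of them, from 20.2 to 211 mean normalised reads in adult DH (LFC 3.40) and from 55.8 to 201 in aged DH (LFC 1.88). Like Giot1 it was also higher in aged EH than in adult EH (LFC 1.39, adjusted p = 0.0121). Maff, a small Maf transcription factor, rose at both ages, with LFCs of 1.22 and 1.17, and Fosl2 with 0.59 and 0.57. The orphan receptor Nr4a1 rose in adult DH (LFC 1.25) and had an LFC of 0.54 in aged DH (adjusted p = 0.198). Egr4, a zinc finger factor of the Egr family, fell in aged DH, from 49.5 to 24.7 mean normalised reads, and Ier5 fell in adult DH (LFC -0.27) and with ageing (LFC -0.35).

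The pathway by which gonadotropins act in the ovary was read through 22 measured genes of cyclic AMP and CREB signalling. In adult DH 4 were higher and 1 lower, where 7.67% and 4.99% of all genes were. In aged DH 2 were higher and 2 lower, where 4.05% and 3.25% of all genes were. The median LFC was 0.01 at both ages. Crem, a CRE-binding factor, rose in both, with LFCs of 0.55 and 0.44. Prkar2a, a regulatory subunit of protein kinase A, rose with 0.24 and 0.18. Prkar1a, another regulatory subunit, and the salt-inducible kinase Sik1 rose in adult DH with LFCs of 0.17 and 0.64. Crtc1, a CREB coactivator, fell in adult DH (LFC -0.13), and Adcyap1, the neuropeptide PACAP, and Prkar2b fell in aged DH (LFC -0.47 and -0.22). Creb1 itself had LFCs of -0.09 in adult DH and 0.06 in aged DH and passed neither test. None of the 22 passed the test for ageing, where 5.99% of all genes did.

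The hormonal machinery of the ovary was barely measured in the SON. Of 11 genes for gonadotropin signalling, steroid synthesis and inhibins, 5 had enough reads to be tested and none was called in any comparison. Over all genes 5.99% were called with ageing, 12.7% in adult DH and 7.29% in aged DH, so no call among 5 genes is near the background. The receptor genes Fshr and Lhcgr had at most 1 and 8 reads in any library. Inha, a subunit of inhibin, was the most abundant of the tested members, with 317 mean normalised reads in adult EH and 282 in adult DH.

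Genes of the corepressor complex that KRAB zinc finger proteins recruit were read in the same way. Of 14 tested, none was called in ageing or adult DH, and in aged DH 1 was called, Cbx1, a heterochromatin protein, which fell with an LFC of -0.33 (adjusted p = 0.0166). Trim28, the corepressor that binds the KRAB domain directly, had LFCs of -0.02 in adult DH, 0.02 in aged DH and -0.08 with ageing. Setdb1, the histone methyltransferase that acts with it, had LFCs of -0.03, -0.06 and -0.08. Over all genes 5.99% were called in ageing, 12.7% in adult DH and 7.29% in aged DH, so the counts in ageing and aged DH are near the background. The call of Cbx1 was lost without replicate 5 of aged EH or replicate 5 of aged DH.

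Among other zinc finger genes, recognised by a symbol that begins with Zfp or Znf, none had a rise of the size of Giot1. Of 255 such genes 238 were tested in each comparison. In adult DH 2 were higher and 1 lower, against 12.7% of all genes called, with Zfp36, an RNA-binding protein that destabilises mRNA, at the highest LFC (0.46, adjusted p = 0.00313). Zfp106 was also higher (LFC 0.14) and Zfp467 lower (LFC -0.35). In aged DH 1 was higher and 7 lower, against 7.29% of all genes called, and the highest LFC was 0.32, for Zfp14, with an adjusted p of 0.551. With ageing 2 were higher and 5 lower, against 5.99% of all genes called. With 1 rat left out, the number called was 2 to 6 in adult DH, 0 to 7 in aged DH (0 without replicate 5 of aged EH or of aged DH) and 3 to 8 with ageing. The highest LFC was 0.34, for Zfp385c, with an adjusted p of 0.576, and the lowest -1.41, for Zfp185. In each of these 3 comparisons none of the 238 had an LFC above that of Giot1. The comparison is of size only, since Giot1 was chosen for its rise in DH.

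**Figure D3:**
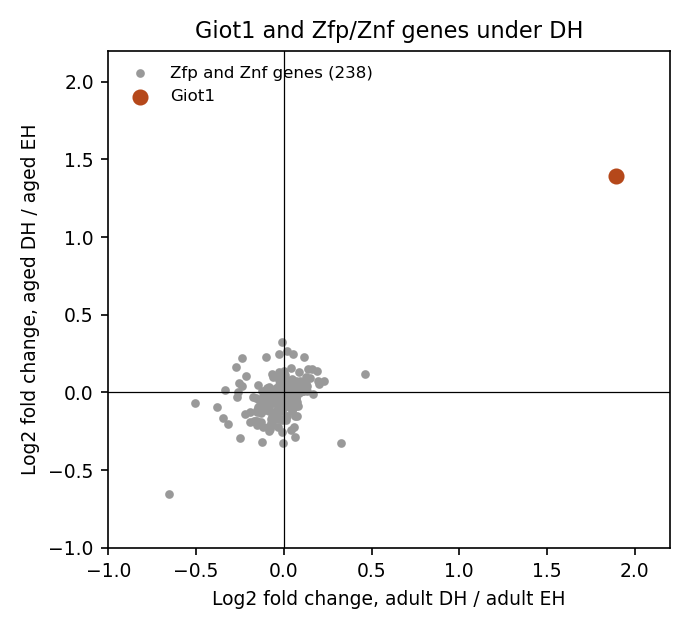
Log2 fold change in adult DH over adult EH (x axis) and in aged DH over aged EH (y axis), 1 point per gene, for 238 Zfp and Znf genes and Giot1. Giot1 lay at 1.90 and 1.39, whereas the highest values of the other genes were 0.46 on the x axis and 0.32 on the y axis.

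Of the genes beside Giot1 on its chromosome, Plpp2 and C2cd4c were called, in aged DH only. The order was taken from the RefSeq annotation, keeping 5 genes with rows in the tables on each side. Before it lie Shc2, C2cd4c, Theg, Mier2 and Plpp2, and after it Vom2r53, LOC691170, Olr1073, Olr1075 and Olr1076. The 3 olfactory receptor genes were listed at 0 in every library, and Vom2r53 was too low to be tested. Of the 6 others none was called with ageing or in adult DH. In aged DH Plpp2, a lipid phosphatase, was higher (LFC 0.35, adjusted p = 0.0232), and C2cd4c was lower (LFC -0.35, adjusted p = 0.0166), while Theg was too low there to be tested. The adjacent Plpp2 had an LFC of 0.19 in adult DH (adjusted p = 0.328), and LOC691170 0.12. Over all genes 5.99% were called with ageing, 12.7% in adult DH and 7.29% in aged DH. So few neighbours were tested that their counts cannot be set apart from these shares.

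The list of magnocellular neurone genes, which holds neuropeptide genes and genes for their processing, was read with DH as well. Of 15 genes of this list, 9 were higher in adult DH and none lower, against 7.67% and 4.99% of all genes. In aged DH 7 were higher and 1, Cck, lower (LFC -0.48), against 4.05% and 3.25% of all genes. Vgf, a granin-like precursor, rose with an LFC of 1.76 in adult DH and 1.02 in aged DH, and Pdyn, the dynorphin precursor, with 1.04 and 0.58. Avp rose in adult DH (LFC 0.48) and had an LFC of 0.21 in aged DH (adjusted p = 0.502). Oxt had LFCs of 0.17 and 0.14 and passed neither test. The mean log2 level of the list ranged from 11.9 to 12.1 in adult EH and from 12.5 to 12.7 in adult DH, and in aged rats from 12.1 to 12.4 in EH and from 12.5 to 12.7 in DH. The EH and DH ranges did not overlap at either age. Giot1 had the same arrangement, but it was chosen for its rise in DH. The arrangement is not particular to this list. Suprachiasmatic markers in adult rats were at 6.16 to 6.40 in EH and 6.48 to 6.74 in DH, and forebrain markers in aged rats, given below, were apart in the other direction.

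The markers of other cell types were read in the same way with DH. Forebrain glutamatergic markers, from neurones outside the SON, were lower for 5 of 8 genes in aged DH and for 1 of 8 in adult DH. Their mean log2 level was 8.08 to 8.87 in aged EH and 7.24 to 7.97 in aged DH, and 7.67 to 8.60 in adult EH and 7.21 to 8.27 in adult DH. Of 4 blood genes, 1 was called lower in each DH comparison, and none of the 4 had an LFC above 0 in either. Their median LFC was -0.78 in adult DH and -0.70 in aged DH, against -0.007 and -0.003 over all genes. Of 8 oligodendrocyte markers, 2 were lower in adult DH and 1 was higher in aged DH. In adult DH 1 of 5 endothelial markers and 1 of 4 markers of fibroblasts and meninges were higher, in aged DH 1 of 8 astrocyte markers was higher, and 1 suprachiasmatic marker was higher at each age. No microglial or GABA neurone marker was called with DH. Over all genes 12.7% were called in adult DH and 7.29% in aged DH. A count of 1 called marker in a list is therefore near the background, although the blood genes moved in 1 direction. The single calls among the astrocyte, blood, fibroblast and, in adult DH, forebrain markers were each lost when some of the rats were left out. Their part in the Giot1 response was not tested.

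Genes whose level followed Giot1 between rats of a group were looked for over the 20 rats, as deviations from each group's mean, which takes out age and DH. No gene passed the adjusted threshold for a slope on Giot1 by limma, and 985 of 15158 genes (6.50%) had an unadjusted p under 0.05, 3.58% with a positive and 2.92% with a negative slope. The lowest adjusted p was 0.611. The correlations that follow are therefore a description of the most similar genes and not a list of partners. The 20 rats share a preparation and, within each age, a scaling. They were named from the 1727 genes with a symbol, a mean of at least 50 and the same sign of r in each of the 4 groups.

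The 10 highest correlations were those of Tram1 (Pearson's r = 0.81), Dnajc1 (0.80), Pabpc1 (0.78), Ufm1 (0.77), Rab8a (0.76), Pdia4 (0.75), Snx7 (0.75), Tnfaip6 (0.74), Nrsn1 (0.73) and Copz2 (0.73). Tram1 is part of the channel that passes new proteins into the endoplasmic reticulum. Dnajc1 is a membrane co-chaperone of that compartment, and Pdia4 an enzyme there that forms disulphide bonds. Ufm1 is a ubiquitin-like modifier, Pabpc1 binds the poly(A) tail of mRNA, Rab8a directs vesicles to the plasma membrane and Copz2 is a subunit of the coatomer coat. Snx7 is a sorting nexin, Nrsn1 a neuronal vesicle protein and Tnfaip6 a secreted protein that binds hyaluronan. Spearman's rho of the 10 ranged from 0.64 for Copz2 to 0.77 for Dnajc1.

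The 5 lowest were Nap1l4, a histone chaperone (r = -0.79), Urgcp (-0.78), Ccdc28a (-0.75), Fn3krp, a kinase of sugar-modified proteins (-0.74), and Nr2f6, an orphan nuclear receptor (-0.74). Without the 2 rats farthest from the median of Giot1, which were replicate 6 of aged EH and of aged DH, the 10 highest fell to between 0.56 (Copz2) and 0.73 (Nrsn1), and the 5 lowest lay between -0.78 (Nap1l4) and -0.71 (Fn3krp). Within single groups the values of Tram1 were uneven, with r = 0.96 in adult EH, 0.17 in adult DH, 0.98 in aged EH and 0.99 in aged DH, each over 5 rats. The variation was small in size, since the SD of Tram1 was 134 around a mean of 2520 normalised reads in aged DH.

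**Figure D4:**
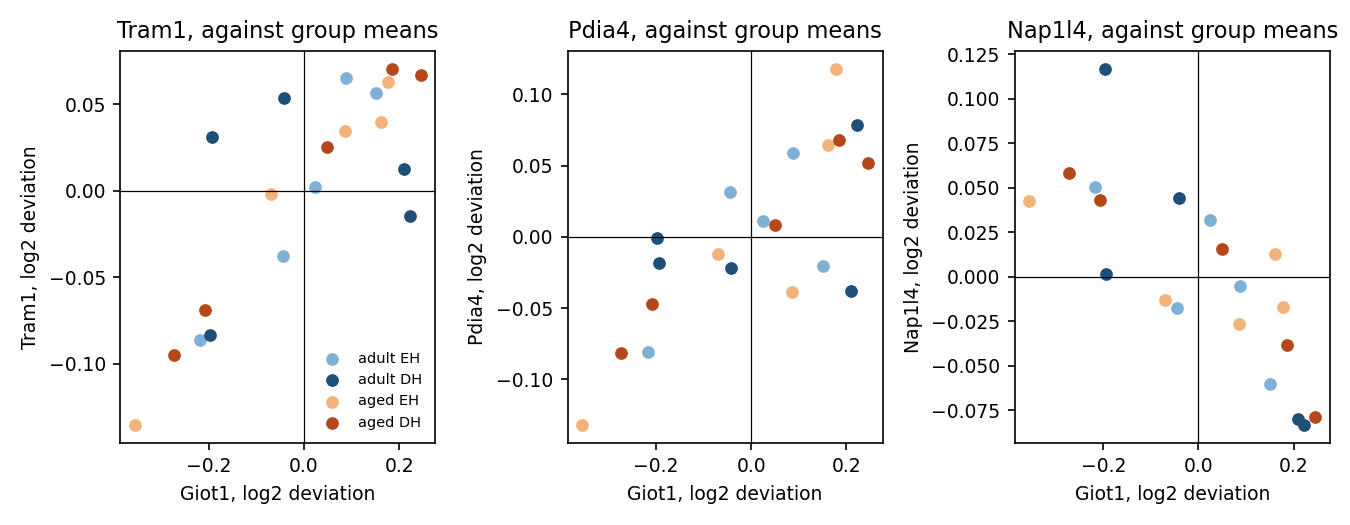
Log2 deviation of Tram1, Pdia4 and Nap1l4 from their group means (y axes) against that of Giot1 (x axes), 1 point per rat, coloured by group, 20 rats. Tram1 and Pdia4 were higher in rats with more Giot1 (r = 0.81 and 0.75) and Nap1l4 lower (r = -0.79), and the lowest Giot1 point, at -0.36, is replicate 6 of aged EH.

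How these genes answered DH and ageing did not enter their choice. Of the 10 highest, 7 were called higher in adult DH and none lower, against 7.67% of all genes as higher, and in aged DH 3 were called higher, against 4.05%. Tnfaip6 had the largest LFCs, 2.99 in adult DH (79.3 to 646 mean normalised reads) and 1.99 in aged DH (108 to 415). Nrsn1 rose with 0.69 and 0.51, and Pdia4 with 0.43 and 0.33. Ufm1, Dnajc1, Snx7 and Pabpc1 rose in adult DH, with LFCs of 0.37, 0.35, 0.23 and 0.11. Tram1, the gene with the highest r, had LFCs of 0.07 and 0.06 and passed neither test (adjusted p = 0.227 and 0.495). With ageing, Copz2 (LFC 0.45), Ufm1 (0.24) and Nrsn1 (0.18) were higher, against 2.69% of all genes. Of the 5 lowest, Fn3krp and Urgcp fell in adult DH (LFC -0.20 and -0.14) and none was called in aged DH or with ageing.

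The lists described above were read in the same way. The 5 DH genes named with Giot1 had a median r of 0.63, with Creb3l1 at 0.68, Caprin2 at 0.64, Rasd1 at 0.63, Slc12a1 at 0.43 and Fos at -0.08. Without the 2 farthest rats these values were, in the same order, 0.56, 0.42, 0.56, 0.34 and -0.02. In adult DH alone they were 0.11, 0.04, 0.36, 0.41 and -0.23. Immediate early genes had a median of -0.05, from -0.39 for Jund to 0.65 for Fosl1. The value of Fosl1 was 0.60 without the 2 farthest rats and 0.05 in adult DH alone. The 22 cyclic AMP and CREB genes had a median of -0.07, the 14 corepressor genes -0.01, the 238 Zfp and Znf genes -0.03 and the 15 magnocellular genes 0.32. The magnocellular value was not particular to that list, since astrocyte markers had a median of 0.35, microglial and endothelial markers 0.26 each and forebrain markers 0.23. Single astrocyte markers ranged from -0.21 for Slc1a3 to 0.65 for Aldh1l1 and Aqp4. Of the 10 genes with the highest r, 8 had a promoter window in the reference, and none of the 8 held the CRE that Giot1 has, which is near the 1.83% of all windows. The window of Tnfaip6 held an AP-1 match, as did 7.33% of all windows.

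The makeup of the punch was compared with Giot1 through the mean log2 level of 10 marker lists. The highest correlation was with astrocyte markers (Pearson's r = 0.51, permutation p = 0.0366, adjusted over 10 lists 0.186; Spearman's rho = 0.44, p = 0.0735, adjusted 0.239; r = 0.48 without the 2 farthest rats). Magnocellular markers gave r = 0.46 (permutation p = 0.0681, adjusted 0.186; rho = 0.42, p = 0.0875, adjusted 0.239), microglial markers 0.46 (permutation p = 0.0745, adjusted 0.186; rho = 0.43, p = 0.0956, adjusted 0.239) and forebrain glutamatergic markers 0.44 (permutation p = 0.0654, adjusted 0.186; rho = 0.43, p = 0.0739, adjusted 0.239). Without the 2 farthest rats the magnocellular value was 0.23, the microglial one 0.20 and the forebrain one 0.50, so the first 2 rest on those rats. The other 6 lists had r between -0.35 (GABA neurons) and 0.36 (endothelium), with adjusted permutation p of 0.350 or more. The GABA value was 0.01 without the 2 farthest rats and so rests on them as well. None of the 10 passed the adjusted threshold. Against sequencing depth, as the log2 of reads on genes, the deviations of Giot1 had r = -0.14 and rho = -0.04 over the 20 rats.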

How the data were processed

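Poly(A) RNA from bilateral SON punches of 20 male Wistar Han rats was sequenced by the authors as stranded paired-end libraries. Per the labels and the study's methods, the authors checked reads with FastQC, aligned them to the rat assembly Rn6 with STAR and made gene counts with featureCounts, which DESeq2 then scaled by a size factor per library. The signal in each library's deposited column is this normalised count, in 3 tables, for ageing among EH rats, for DH in adult rats and for DH in aged rats. The EH libraries appear in 2 tables each. The authors' fold changes, Wald scores and p-values in the same tables were not used. All 30 per-sample columns were used. The tables hold 32402 Ensembl genes, of which 20849 carry a symbol, and 249 symbols are shared by several genes.

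Values were taken as log2 of the normalised count plus 1, so fold changes of low genes are understated. Genes with a mean of at least 10 were tested with limma 3.58.1 (R 4.3.3) with moderation that follows the mean, two-sided, with p-values adjusted by Benjamini-Hochberg across the genes of each fit and a threshold of 0.05. For the difference between the ages, and for the slope on Giot1 with the 4 group means as covariates, each rat's value came from the DH table of its age. In every library 100% of the values came to within 0.1 read of a whole number once divided by the library's smallest step, so the reads were recovered and set on 1 scale for all 20 libraries with TMM factors (edgeR 4.0.16). On these reads edgeR quasi-likelihood and DESeq2 1.42.0 were run as alternatives, and on the joint scale edgeR called 1878 of 15332 genes between aged DH and adult DH, where limma called 1904. The scripts were tested on simulated data with known changes. Correlations between rats used deviations from group means, with 100000 permutations within groups for the marker lists.

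The rats are separate animals of a group. They were housed in shared cages that were assigned to EH or DH as a whole, and the labels do not give the cage, so p-values measure the spread between these rats. Gene, lists and most tests were chosen with earlier results of these data known. Named genes are Giot1, the 10 genes with the highest and the 5 with the lowest r with Giot1 among those with a symbol, a mean of at least 50 and 1 sign of r in all 4 groups, the 5 genes on each side of Giot1 in the reference order, and members of the lists where a list is reported. Of 149 list symbols 3 matched no gene and 1 matched more than 1. Protein sequences were not analysed here, so zinc finger genes were taken by symbol and a ranking by protein identity was not made. Promoters are RefSeq sequences of assembly GRCr8, which is not the authors' build. Figures were drawn with matplotlib 3.10.9.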

Additional observations from a re-analysis of the deposited data

Results flagged for a closer look

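In no group of 5 rats did a value of Giot1 stand apart from the other 4 by Dixon's criterion (a gap to the nearest rat above 0.71 of the group's range). Among the 68 genes named in the text, examined in 272 groups, 14 values did. That total is near what chance alone flags, about 1 group in 20. Of the 14 values, 5 belong to replicate 6 of aged DH, which also had the lowest Giot1 of its group. In that rat Copz2 was at 204 normalised reads (next 284) and Ufm1 at 1190 (next 1292), both low. These 2 genes were named for following Giot1, so low values in a rat low in Giot1 are no independent evidence. Dusp1 was at 999 (next 607), Nr4a1 at 1605 (next 878) and Egr4 at 39.3 (next 22.9), all high. Replicate 5 of aged EH gave 3 of the values, with Fos at 583 (next 313), Dusp1 at 736 (next 445) and Nr4a1 at 1005 (next 575), all high. The other 6 values were single ones, with Crh at 310 in replicate 1 of aged DH (next 170), Plpp2 at 273.0 in replicate 2 of aged DH (next 244), Mier2 at 734 in replicate 1 of adult DH (next 647), Pam at 17330.0 in replicate 2 of adult EH (next 19604), Pcsk2 at 4267 in replicate 6 of adult EH (next 4460) and Zfp467 at 699 in replicate 1 of aged EH (next 746).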

How the results depend on the processing

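Each result for Giot1 kept its direction, and each tested result its side of the threshold, under every alternative run. These were pseudocounts of 10 and 0.5, means of at least 1 and 50, TMM and quantile scaling, edgeR and DESeq2 on recovered reads, the replicate block and each rat left out (for aged DH against adult DH, only the other tools and the left-out rats). With single rats left out the LFC was 0.53 to 0.67 for ageing (limma adjusted p 0.00157 to 0.0206), 1.84 to 1.94 for adult DH, 1.30 to 1.46 for aged DH, -0.59 to -0.44 for the difference between the ages (adjusted p 0.165 to 0.462) and 0.02 to 0.15 for aged DH against adult DH. Over the other settings the ageing LFC was 0.56 to 0.60 (adjusted p 2.14e-05 to 0.0124) and that for the difference between the ages -0.51 to -0.43 (adjusted p 0.133 to 0.348). With the replicate block the LFC was 1.93 in adult DH, 1.42 in aged DH and 0.59 with ageing (adjusted p = 0.0124). The gap between the 2 age responses was then -0.43. Same-numbered rats had correlations of -0.08 to 0.16 between their deviations, for adult EH with aged EH and for EH with DH at each age. Whether same-numbered rats share a factor that acts on some genes was not tested. The block moved the number of genes called in adult DH from 1934 to 987 and in aged DH from 1119 to 653. Leaving out replicate 4 of aged EH or replicate 5 of adult EH moved the count for ageing from 921 to 599 or 594, and leaving out replicate 5 of aged EH or of aged DH moved that for aged DH to 679 or 678. The count for the difference between the ages was 0, and 5 without replicate 6 of aged EH, and it was 1 with the block and without replicate 5 of adult EH, replicate 1 of adult DH or replicate 3 of aged DH. No setting called a gene for its slope on Giot1. In adult rats alone the 10 highest correlations went down to 0.46 and in aged rats alone to 0.71, and 2 and 5 of the 10 were among the 100 highest there. With the block the lowest of the 10 was 0.46, and without replicate 6 of aged EH 0.64. Counts of list members moved by over 1.5 times in 103 of 1248 refits, and the cause was not tested. Counting error of Giot1 was at most 7.62% per library, while 5 rats per group limit all comparisons.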
